A study of Homo sapiens with 14 samples.

Results

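The interaction between cell line and oxygen was examined, that is, the difference between the hypoxic response of PC3 cells and that of HCT116 cells for each gene. PC3 is a line from a metastasis of a prostate carcinoma that lacks p53. HCT116 is a colorectal carcinoma line with wild type p53, mutant CTNNB1 and defective mismatch repair. RNA-seq was available for 14 of 14 libraries: PC3 in normoxia (21% O2) and in hypoxia (0.5% O2), with 4 libraries each, and HCT116 under the same 2 conditions, with 3 libraries each, all held for 16 h. No gene was edited and no agent was added in either line. Of 23106 genes counted, 15493 had enough reads to be tested. The study asked how hypoxia regulates chromatin and transcription, and used these lines to set RNA changes beside histone marks.

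Each line is 1 model of its tumour type, and the lines were grown in different media (DMEM/Ham's F12 for PC3, McCoy's 5a for HCT116), so line, tissue of origin, genotype and medium cannot be told apart here. Bulk RNA also cannot separate fewer cells of a kind from less RNA per cell. Oxygen sensing in both lines works through the hypoxia-inducible factors (HIFs). In the presence of oxygen, the prolyl hydroxylases encoded by EGLN1, EGLN2 and EGLN3 mark the HIF alpha subunits for destruction by the VHL ubiquitin ligase. When oxygen falls, HIF alpha accumulates, pairs with ARNT (HIF-1 beta), binds core motifs such as ACGTG and raises genes of glycolysis, pH control, mitophagy, matrix modification and angiogenesis.

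Total counts ranged from 98022000 to 123935000 in PC3 normoxia, from 71228500 to 96159800 in PC3 hypoxia and from 133067000 to 150631000 in the HCT116 libraries. Levels are given as CPM (counts as a proportion of the library's total, after trimmed-mean scaling), which are not corrected for transcript length and so are compared between samples only. All 12 epithelial markers were at 1 CPM or more in both lines. HOXB13, a prostate transcription factor, was at 81.0 CPM in PC3 normoxia and 10.0 in HCT116, CDX2, an intestinal one, was at 0 in PC3 and 17.6 in HCT116, while KLK2, KLK3 and FOLH1 were at or below 0.00692 CPM in PC3, and CDX1, VIL1 and CDH17 were at or below 0.0245 in HCT116. CEACAM5, a colon marker, went against the labelled tissue, with 15.3 CPM in PC3 and 0.00734 in HCT116. The library PC3 hypoxia replicate 4 stood apart: 16.1% of 12638 expressed genes lay over 0.5 log2 from the mean of the other libraries of its group. PC3 replicate 1 followed, with 12.2% in hypoxia and 9.56% in normoxia, against 1.99 to 5.39% in the other 11 libraries. The biological coefficient of variation was 15.8% in PC3 and 8.95% in HCT116, and 1 shared estimate of the spread was used. The labels do not say that replicates were separate cultures, although the study calls them biological replicates, so the p-values measure the spread between these libraries.

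Most hypoxic changes were not shown to depend on the line. At an adjusted p of 0.05 (quasi-likelihood test of edgeR, Benjamini-Hochberg), the log2 fold change differed between PC3 and HCT116 for 359 genes, which is 2.32% of those tested. It was larger in PC3 for 156 genes (1.01%) and larger in HCT116 for 203 (1.31%). Sign counts in this split: a gene that falls in 1 line only has the larger log2 fold change in the other line. The split therefore does not say which line responded more. In PC3 alone 1219 genes were higher in hypoxia (7.87%) and 1246 lower (8.04%), and in HCT116 938 were higher (6.05%) and 795 lower (5.13%). Which line had more calls turned with the estimate of the spread: it was PC3 with the shared estimate, while fitting each line apart gave 1620 genes in PC3 and 3657 in HCT116, and limma (voom) with weights per group gave 1864 and 3487. Of 1727 genes called in PC3 and not in HCT116, only 152 had a difference that was itself called, and of 995 called in HCT116 and not in PC3 only 108 had. For most genes called in 1 line, no difference between the lines was called.

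The genes were sorted by rules that use the test of the difference. A gene responded in 1 line only if it was called there, its difference was called, and the 95% interval of its log2 fold change in the other line lay within 0.5 of 0. This held for 105 genes in PC3 (0.678%) and 89 in HCT116 (0.574%). Another 41 genes (0.265%) were called in both lines with opposite signs, 22 of them lower in PC3 and higher in HCT116 and 19 the other way round. A further 54 (0.349%) were called in the same direction by unequal amounts, and 51 of these had the steeper change in HCT116. Finally, 397 genes (2.56%), 208 rising and 189 falling, were called in the same direction with an interval of the difference within 0.5, and are described as equal. Their median absolute log2 fold change was 0.367 in PC3 and 0.400 in HCT116, below that width. Equal therefore means a gap within 0.5, and small responses may still differ in proportion. The median was 0.517 in PC3 for the PC3-only class and 0.488 in HCT116 for the HCT116-only class, also close to the width. The unequal class was nearly all induction: 53 of its 54 genes rose in both lines.

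**Figure D1:**
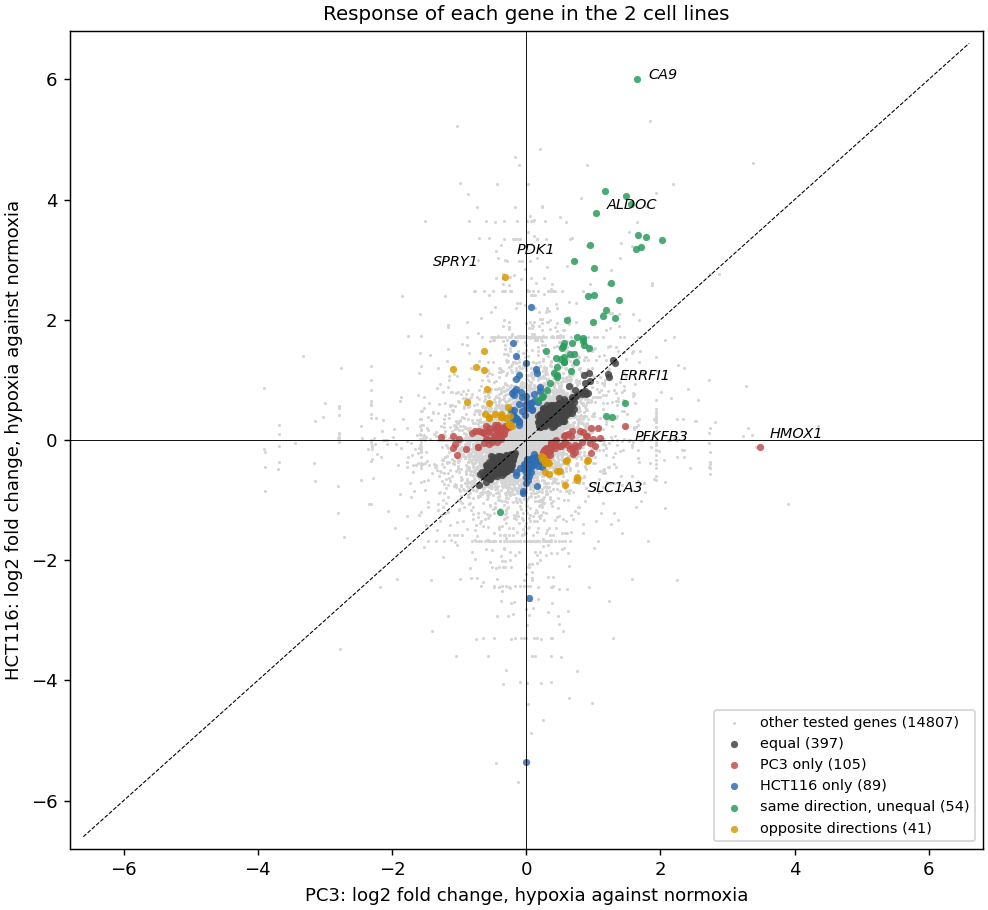
Each point is a gene, with its log2 fold change in hypoxia against normoxia in PC3 on the x axis and in HCT116 on the y axis, coloured by class, and the dashed line marks equal change. The 54 genes of the same direction by unequal amounts lie mostly above the dashed line (51 of 54), HMOX1 lies far to the right near an HCT116 change of -0.11. The fitted HCT116 values of genes near 0 counts in that line, such as MMRN1 at the lower edge, depend on the prior count and are not bounds.

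Replicate numbers paired the PC3 libraries, but not the HCT116 libraries. When PC3 libraries were blocked by replicate number, a choice made after seeing the data, 1270 genes differed (8.2%). The log2 fold change, with its sign, was larger in PC3 for 588 and in HCT116 for 682. All 359 genes were among them. The block gave 418 genes that respond in PC3 only, 398 in HCT116 only, 118 in opposite directions, 162 unequal in the same direction and 1020 equal. Without PC3 hypoxia replicate 4, 717 genes differed, and 358 of the 359 were still called. Without PC3 replicate 1 in both conditions, 508 differed and 320 of the 359 were still called. Under upper-quartile scaling the split was 115 larger in PC3 and 278 in HCT116.

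No difference between the lines was called in the oxygen-sensing machinery. Of 9 tested genes of the HIF system, none differed by the test, and 1 did with the block in PC3 (EGLN3). Without PC3 hypoxia replicate 4 EGLN1 differed (-0.41, edgeR's quasi-likelihood test, adjusted p = 0.0261). HIF1A, which encodes HIF-1 alpha, read 565, 679, 667 and 754 CPM in PC3 normoxia and 431, 473, 480 and 453 in hypoxia, and in HCT116 209, 222 and 208 against 131, 134 and 143. It fell by 0.54 (log2) in PC3 and by 0.65 in HCT116, with no overlap between conditions in either line, and the difference of 0.11 had a 95% interval from -0.15 to 0.37. EPAS1, which encodes HIF-2 alpha, was at 322, 252, 265 and 258 CPM in PC3 normoxia and at 24.5, 23.0 and 19.7 in HCT116 normoxia, a baseline gap of 3.61 on the log2 scale. Its hypoxic values were 410, 337, 308 and 295 in PC3 and 28.3, 31.5 and 25.8 in HCT116, which did not pass the test in either line.

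The hydroxylase genes EGLN1 and EGLN3, which are HIF targets themselves, rose in both lines. EGLN1 went from between 86.3 and 93.2 CPM to between 175 and 245 in PC3, and from between 71.3 and 75.4 to between 210 and 216 in HCT116. EGLN3 went from 3.23, 1.71, 1.43 and 1.28 CPM to 10.4, 5.87, 5.45 and 6.39 in PC3 and from 4.76, 4.66 and 4.80 to 27.3, 30.7 and 28.7 in HCT116. Its difference of -0.73 was not called (edgeR's quasi-likelihood test, adjusted p = 0.361) but was with the block (adjusted p = 0.00878). ARNT, ARNT2, EGLN2, HIF1AN and VHL passed in neither line. The asparaginyl hydroxylase gene HIF1AN was at 251 to 269 CPM in PC3 normoxia and 102 to 108 in HCT116 normoxia.

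Most targets of HIF rose in both lines, and nearly all of those that differed rose more steeply in HCT116. Of 53 classical HIF targets tested, 48 were higher in hypoxia in PC3, 47 in HCT116 and 44 in both. The difference between the lines was called for 22, larger in HCT116 for 21 and larger in PC3 for 1, against 2.32% of all genes. With the block in PC3 it was called for 34, 32 of them larger in HCT116. The median log2 fold change over the 53 was 1.03 in PC3 and 1.69 in HCT116, and over all tested genes both medians were close to 0. By sign alone, 46 of the 53 had the larger change in HCT116. The list was chosen with results of these libraries known and is not independent evidence of its direction.

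Promoter stretches of some of the genes described below are shown, with and without the ACGTG form of the HIF core motif, for different kinds of response. They are the 150 bases before the first listed start in RefSeq (GRCh38.p14), read 5′ to 3′ on the gene's strand, with capitals marking ACGTG, or CACGT where the motif lies on the other strand. CA9, DDIT4, P4HA1, ENO2 and PDK1 rose more in HCT116, MAP7D2 had the larger change in PC3, and TFRC and GCLM moved in opposite directions.
CA9 (chr9:35673778-35673927, plus strand): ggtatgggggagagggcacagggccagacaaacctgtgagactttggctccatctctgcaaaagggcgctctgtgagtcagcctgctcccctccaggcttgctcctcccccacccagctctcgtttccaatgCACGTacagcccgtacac
DDIT4 (chr10:72273774-72273923, plus strand): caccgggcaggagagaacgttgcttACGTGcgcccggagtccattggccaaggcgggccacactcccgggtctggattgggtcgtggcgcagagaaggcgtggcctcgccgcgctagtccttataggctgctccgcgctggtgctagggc
P4HA1 (chr10:73096867-73097016, minus strand): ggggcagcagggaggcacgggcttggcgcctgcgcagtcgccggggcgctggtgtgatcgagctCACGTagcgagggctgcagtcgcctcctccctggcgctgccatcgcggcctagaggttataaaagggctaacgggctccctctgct
ENO2 (chr12:6914430-6914579, plus strand): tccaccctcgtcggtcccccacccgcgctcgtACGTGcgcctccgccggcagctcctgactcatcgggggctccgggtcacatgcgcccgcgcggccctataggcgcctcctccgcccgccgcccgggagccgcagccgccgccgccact
PDK1 (chr2:172555223-172555372, plus strand): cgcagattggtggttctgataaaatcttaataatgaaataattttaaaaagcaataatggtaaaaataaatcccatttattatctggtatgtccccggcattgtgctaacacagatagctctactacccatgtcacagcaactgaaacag
TFRC (chr3:196082091-196082240, minus strand): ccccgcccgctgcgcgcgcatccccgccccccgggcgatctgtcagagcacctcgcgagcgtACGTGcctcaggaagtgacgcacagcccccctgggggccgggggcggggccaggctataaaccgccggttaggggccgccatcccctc
MAP7D2 (chrX:20116908-20117057, minus strand): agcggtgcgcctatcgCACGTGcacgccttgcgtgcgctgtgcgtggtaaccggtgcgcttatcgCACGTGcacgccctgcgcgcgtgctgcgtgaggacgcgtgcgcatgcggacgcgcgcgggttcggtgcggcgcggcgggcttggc
GCLM (chr1:93909431-93909580, minus strand): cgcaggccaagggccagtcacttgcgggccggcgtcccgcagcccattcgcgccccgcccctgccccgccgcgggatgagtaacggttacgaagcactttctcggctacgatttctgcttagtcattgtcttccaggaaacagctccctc
The motif lies 18 bases before the start in CA9, 125 in DDIT4, 86 in P4HA1, 118 in ENO2 and 88 in TFRC, counted from the first base of the match. MAP7D2 holds the palindrome CACGTG at 2 places, each of which counts on both strands. This palindrome is also the E-box read by other basic helix-loop-helix factors. PDK1 and GCLM have no match in this stretch, which says only that these letters are not there.

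CA9, a membrane carbonic anhydrase that acidifies the cell's surroundings, showed the largest difference among the HIF targets (gene at chr9:35673925-35681156, GRCh37). It was at 0.193, 0.375, 0.223 and 0.108 CPM in PC3 normoxia and 0.536, 0.919, 0.796 and 0.611 in hypoxia. In HCT116 it went from 0.147, 0.0921 and 0.119 to 7.13, 8.81 and 7.47. Hypoxic libraries exceeded normoxic ones in both lines without overlap, and every HCT116 hypoxic library exceeded every PC3 hypoxic library. The log2 fold change was 1.66 in PC3 and 6.01 in HCT116, a difference of -4.35 ± 0.45 (SE, edgeR's quasi-likelihood test, adjusted p = 7.77e-05).

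Genes of glucose use moved alike, but the lists overlap. ALDOC, PFKFB3, PFKFB4, HK2 and LDHA are also among the classical HIF targets counted above. So are PDK1, GBE1, BNIP3, BNIP3L, DDIT4, MIR210HG, PLOD2, P4HA1, KDM3A, KDM4B and BHLHE40, described below. The counts by list are therefore not independent of the HIF target count. Of 21 glycolysis genes, 18 rose in each line, 7 rose more in HCT116 and 1, PFKFB3, rose in PC3 only. With the block the counts were 11 and 1. ALDOC, a fructose-bisphosphate aldolase, was at 19.8, 13.3, 14.6 and 14.9 CPM in PC3 normoxia and 27.2, 29.8, 25.6 and 45.5 in hypoxia, and in HCT116 at 11.9, 16.3 and 11.8 against 158, 236 and 154. The normoxic levels of the lines overlapped while every HCT116 hypoxic library was above every PC3 one, and the difference in response was -2.74 ± 0.30 (adjusted p = 0.00013). PDK1, the kinase that inhibits pyruvate dehydrogenase and so limits the making of acetyl-CoA from pyruvate, showed the other form of the same result. It was at 55.1, 54.5, 55.9 and 54.2 CPM in PC3 normoxia and at 12.1, 13.1 and 11.9 in HCT116 normoxia. In hypoxia it reached 71.9, 93.8, 86.4 and 108 in PC3 and 109, 104 and 78.7 in HCT116, so the lines overlapped in hypoxia and not in normoxia. Its difference was -2.26 ± 0.18 (adjusted p = 7.16e-06).

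PFKFB4, an isoform of the enzyme that sets the level of fructose 2,6-bisphosphate, rose by 2.02 (log2) in PC3 and 3.32 in HCT116. The neuronal-type enolase ENO2 rose by 1.18 and 2.16, a difference whose call was lost in 3 of 25 other settings, and hexokinase HK2 by 0.99 and 1.96. LDHA, which makes lactate from pyruvate, went from a mean of 3310 to 5929 CPM in PC3 and from 1647 to 5135 in HCT116, and GPI and PFKL also rose more in HCT116. The glycogen genes GBE1 and GYS1, a branching enzyme and a synthase, rose by 0.94 and 0.45 in PC3 and by 1.52 and 1.05 in HCT116. Of 11 glycogen genes these 2 differed, and GYS1 lost its call in 11 of 25 other settings and GBE1 in 3. Among those with no called difference, SLC2A1, the main glucose transporter, rose by 1.24 in PC3 and by 2.11 in HCT116 (difference adjusted p = 0.0512, edgeR's quasi-likelihood test), and SLC2A3 was near absent from PC3 (0.0682 CPM in normoxia, 0.194 in hypoxia) but went from 7.49 to 82.0 in HCT116.

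The mitophagy receptors BNIP3 and BNIP3L rose in both lines and more in HCT116, and were the only 2 of 10 mitophagy genes to differ. BNIP3 was at 48.9, 47.6, 48.3 and 39.8 CPM in PC3 normoxia and 113, 165, 153 and 171 in hypoxia, and at 42.3, 41.9 and 42.2 against 391, 412 and 363 in HCT116. The HCT116 normoxic values lay within the PC3 range, and the difference in response was -1.50 ± 0.17 (edgeR's quasi-likelihood test, adjusted p = 0.000142). BNIP3L started at 120 to 156 CPM in PC3 and 31.8 to 38.8 in HCT116 and reached 243 to 273 and 292 to 377 (difference -2.29 ± 0.15).

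DDIT4, a brake on mTORC1, was at 23.8, 10.5, 9.04 and 14.2 CPM in PC3 normoxia and 44.01, 36.01, 30.5 and 51.9 in hypoxia, and at 27.4, 42.7 and 25.1 against 452, 696 and 444 in HCT116. Among the 21 classical HIF targets called with a larger response in HCT116, it was the only one with a higher normoxic level there, and its difference was -2.57 ± 0.42 (adjusted p = 0.00476). It was also the only 1 of 11 mTORC1 brakes to differ. MIR210HG, the host transcript of the hypoxia microRNA miR-210, went from 3.48, 2.00, 2.60 and 2.24 CPM to 5.14, 6.03, 6.39 and 5.68 in PC3 and from 0.482, 0.624 and 0.329 to 8.49, 8.96 and 7.91 in HCT116 (difference -2.97 ± 0.29). CXCR4, the receptor of the chemokine CXCL12, rose from between 0.222 and 0.562 CPM to between 0.930 and 1.10 in PC3 and from between 0.147 and 0.525 to between 3.51 and 6.44 in HCT116 (difference -2.36 ± 0.52, adjusted p = 0.0284), a call lost in 9 of 25 other settings.

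**Figure D2:**
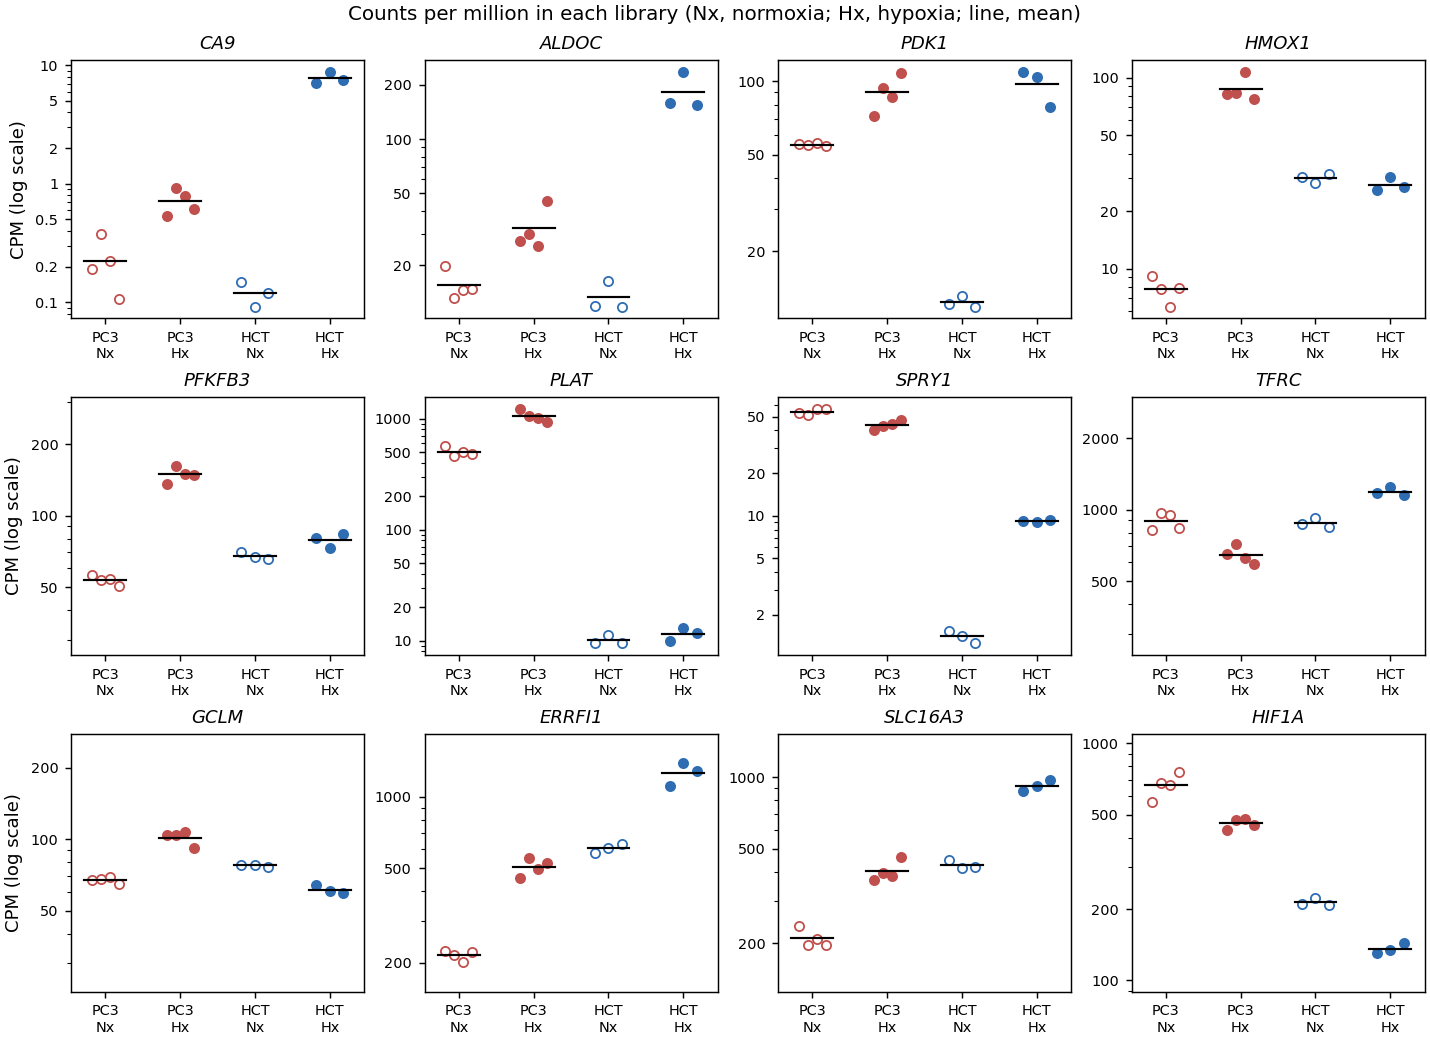
CPM on a log axis in every library for 12 genes, with open circles for normoxia (Nx), filled circles for hypoxia (Hx), red for PC3 and blue for HCT116, and a bar at the group mean. CA9 and ALDOC reach far higher levels in HCT116 hypoxia, PDK1 starts lower in HCT116 and ends at PC3 levels, HMOX1, PFKFB3 and PLAT move in PC3, SPRY1, TFRC and GCLM move in opposite directions, and ERRFI1, SLC16A3 and HIF1A move by equal amounts.

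Some oxygen-dependent enzymes that modify collagen and histones rose more steeply in HCT116. Of 11 collagen hydroxylases and lysyl oxidases, PLOD1, PLOD2, P4HA1 and LOXL2 rose in both lines and differed, all with a larger change in HCT116. LOXL2 lost its call in 7 of 25 other settings. The list's medians were 0.77 in PC3 and 0.48 in HCT116, the reverse order. The median of the per-gene differences, PC3 minus HCT116, was -0.40, the same direction as the called genes. PLOD2, a lysyl hydroxylase, was at 423, 319, 311 and 281 CPM in PC3 normoxia and 731, 662, 619 and 663 in hypoxia, and at 28.3, 30.1 and 28.4 against 194, 244 and 195 in HCT116. The HCT116 hypoxic values stayed below the PC3 normoxic ones, and the PC3 response minus the HCT116 response was -1.86 ± 0.17 (edgeR's quasi-likelihood test, adjusted p = 3.98e-05).

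P4HA1, a collagen prolyl hydroxylase subunit, rose by 1.26 in PC3 and by 2.61 in HCT116, from 219 to 307 CPM and 36.3 to 40.3 CPM in the respective normoxic libraries. Of 18 JmjC histone demethylases, 7 rose in each line and KDM3A and KDM4B differed (11.1%, against 2.32% of all genes tested). KDM3A, which removes H3K9 methylation, was at 63.0, 61.9, 54.7 and 64.0 CPM in PC3 normoxia and 108, 140, 120 and 121 in hypoxia, and at 35.7, 41.4 and 33.7 against 180, 215 and 193 in HCT116. Its difference was -1.41 ± 0.14 (adjusted p = 6.04e-05), and the lines changed order between normoxia and hypoxia. KDM4B, which acts on H3K9 and H3K36 methylation, rose by 0.76 and by 1.72. Of 24 H3 methyltransferase and COMPASS genes, 1 differed (4.17%, against 2.32% of all genes tested). ASH2L was at 40.7 to 42.4 CPM in PC3 normoxia and 36.3 to 39.8 in hypoxia, and rose by 0.24 in HCT116, from between 66.1 and 72.4 to between 78.5 and 85.3. The call of its difference was lost in 17 of 25 other settings.

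Other steeper HCT116 inductions included transcription factors. BHLHE40, a repressor in the circadian clock, was at 85.7, 67.2, 62.9 and 91.3 CPM in PC3 normoxia and 218, 238, 194 and 302 in hypoxia, and at 18.9, 22.8 and 17.3 against 148, 221 and 163 in HCT116 (difference -1.54 ± 0.25, adjusted p = 0.00393). Its relative BHLHE41 rose in HCT116 only, from 1.70, 2.29 and 1.62 CPM to 3.15, 4.32 and 4.67, and was at 157 to 212 in PC3 normoxia and 192 to 217 in hypoxia. FOSL2, an AP-1 subunit, rose by 0.53 in PC3 and 1.54 in HCT116, a difference whose call was lost in 3 of 25 other settings. Over all genes tested, 6.05% rose in HCT116 and 7.87% in PC3, 2.32% differed, and 8.2% did with the block. Of 23 immediate early genes, 9 rose in HCT116 and 4 in PC3, 2 differed (FOSL2 and KLF10), and 7 did with the block, all with a larger log2 fold change in HCT116. JUN, for example, rose from a mean of 81.7 to 127 CPM in PC3 and from 13.2 to 34.7 in HCT116.

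**Figure D3:**
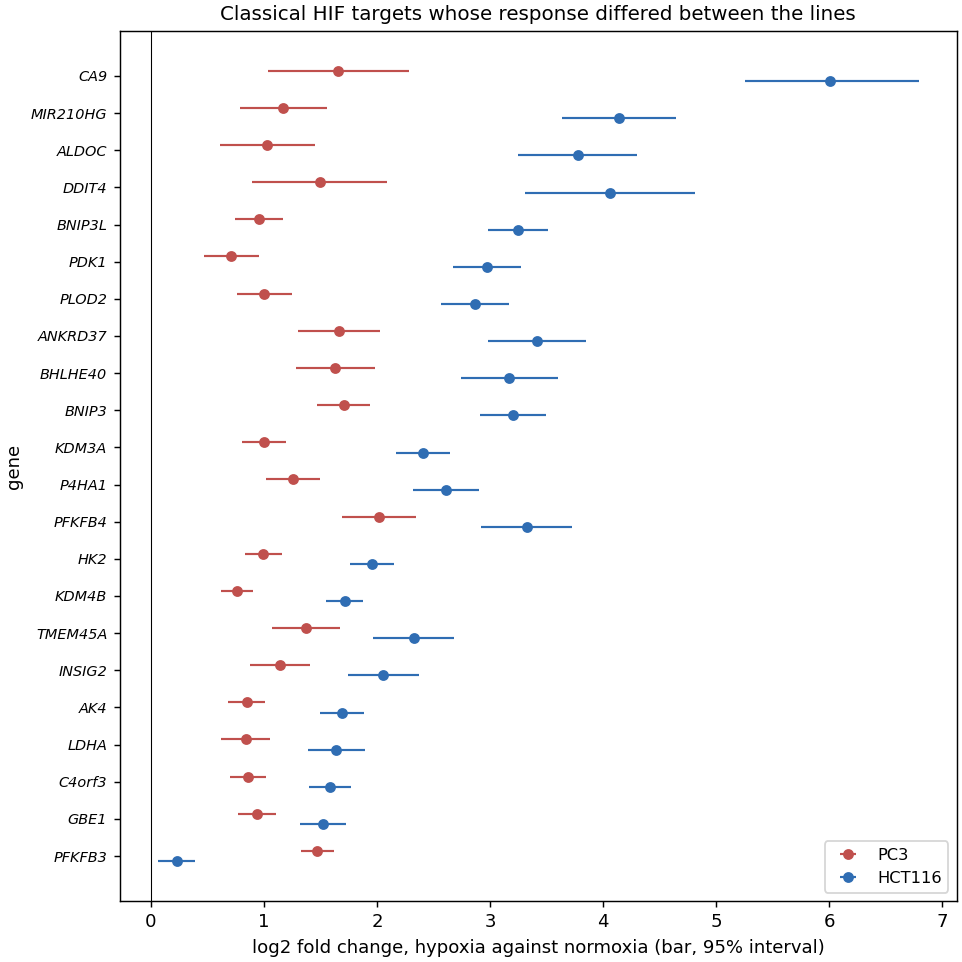
Points are log2 fold changes in hypoxia against normoxia and bars their 95% intervals, for the 22 classical HIF targets whose response differed, PC3 in red and HCT116 in blue. In 21 the HCT116 point lies to the right of the PC3 point, from CA9 (1.66 and 6.01) to GBE1 (0.94 and 1.52), and PFKFB3 at the bottom is the exception.

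Most HIF targets with a larger response in HCT116 started lower there in normoxia, as did 39 of the 53 on the list. Of the 21 HIF targets with a larger response in HCT116, 20 were lower in HCT116 than in PC3 in normoxia, and in hypoxia 13 of the 21 were higher in HCT116. The rise in CPM itself was larger in HCT116 for 16 of the 21. In P4HA1, PLOD2, INSIG2, GBE1 and BHLHE40 the absolute rise was larger in PC3. Of all 50 genes that rose in both lines and more in HCT116, 42 were lower in HCT116 normoxia and 27 higher in HCT116 hypoxia. Normoxic libraries enter both the baseline gap and the fold change, so these counts are a description and carry no test. Over all 53 HIF targets, 34 of the 39 with a lower HCT116 normoxic level and 12 of the 14 with a higher one had the larger fold change in HCT116. By sign, the larger change in HCT116 was thus frequent at either baseline.

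The genes that rose in PC3 only were led by HMOX1, the heme oxygenase whose gene (chr22:35776354-35790207, GRCh37) is repressed by BACH1 and activated by NRF2. It was at 9.17, 7.84, 6.33 and 7.89 CPM in PC3 normoxia and 81.9, 83.4, 107 and 77.4 in hypoxia. In HCT116 it was at 30.1, 28.1 and 31.2 in normoxia and 25.9, 30.1 and 26.7 in hypoxia, values that overlap. PC3 thus went from below to above the HCT116 range. The log2 fold change was 3.49 in PC3 and -0.11 in HCT116 (95% interval -0.39 to 0.16), a difference of 3.60 ± 0.18 (edgeR's quasi-likelihood test, adjusted p = 2.5e-08).

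Of 18 NRF2 and BACH1 targets and regulators, 7 rose in PC3 and none fell, while 1 rose and 3 fell in HCT116. The difference was called for 4, all with the larger log2 fold change (by sign) in PC3, and for 6 with the block. GCLM, the modifier subunit of the enzyme that starts glutathione synthesis, was at 67.5, 68.1, 69.2 and 64.8 CPM in PC3 normoxia and 104, 104, 108 and 91.8 in hypoxia, and at 78.3, 78.3 and 76.7 against 63.9, 60.8 and 59.2 in HCT116. It rose by 0.60 in PC3 and fell by 0.34 in HCT116, without overlap in either line (difference 0.94 ± 0.09, adjusted p = 4.14e-05). ME1, malic enzyme, rose by 0.28 in PC3 and fell by 0.39 in HCT116. SLC7A11, which imports cystine for glutathione, fell in HCT116 only, from 81.2, 103 and 78.7 CPM to 39.0, 61.6 and 41.2, and was at 60.3 to 78.1 in PC3 normoxia and 58.9 to 75.3 in hypoxia. Its adjusted p of 0.0489 was just under the threshold, and the call was lost in 14 of 25 other settings. BACH1 itself rose in PC3, from a mean of 52.9 to 74.9 CPM, and went from 32.6 to 37.9 in HCT116, with no difference called.

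PFKFB3 was the 1 glycolytic gene to respond in PC3 only. This kinase, which raises fructose 2,6-bisphosphate, was at 56.3, 53.7, 54.0 and 50.5 CPM in PC3 normoxia and 135, 162, 150 and 149 in hypoxia, and at 70.1, 67.2 and 65.4 against 80.6, 73.1 and 83.7 in HCT116. The HCT116 groups did not overlap either, but the rise of 0.23 there was not called (adjusted p = 0.0714). Without PC3 hypoxia replicate 4 that rise was called, and PFKFB3 rose in both lines by unequal amounts. The difference was 1.25 ± 0.10 (edgeR's quasi-likelihood test, adjusted p = 1.09e-05), the reverse of that of its relative PFKFB4. Tissue plasminogen activator, PLAT, went from 567, 462, 502 and 484 CPM to 1233.5, 1056, 1012 and 928 in PC3 and from 9.55, 11.1 and 9.45 to 9.83, 12.999 and 11.6 in HCT116 (difference 0.88 ± 0.16, adjusted p = 0.0102). NFKBIA, the inhibitor of NF-kappa B, rose by 0.62 in PC3, and its HCT116 interval spanned 0. The call was fragile, lost in 13 of 25 other settings.

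Further genes were called in PC3 but had an HCT116 interval too wide for the PC3-only class. ITPR1, an ER calcium release channel, was at 24.1, 25.9, 26.7 and 30.8 CPM in PC3 normoxia and 93.0, 156, 123 and 136 in hypoxia, and at 8.74, 7.82 and 9.09 against 11.1, 10.9 and 10.6 in HCT116. It was the 1 of 13 ER calcium genes to differ (1.89 ± 0.19, adjusted p = 6.67e-05). ARTN, a ligand of the GDNF family, rose from 3.77, 3.89, 3.21 and 4.75 CPM to 16.9, 17.0, 12.5 and 15.3 in PC3 and was at 6.72, 6.65 and 8.59 against 5.89, 6.80 and 6.69 in HCT116 (difference 2.16 ± 0.21, adjusted p = 4.14e-05). C10orf10, a FOXO target also called DEPP1, rose from between 1.48 and 2.54 CPM to between 7.07 and 17.3 in PC3 and was at 0.617 to 0.750 against 0.790 to 0.899 in HCT116. MAP7D2, whose promoter is shown above, rose from 1.98, 0.996, 1.19 and 1.14 CPM to 6.37, 4.18, 4.12 and 3.396 in PC3, and ESR2, estrogen receptor beta, from between 1.04 and 1.58 to between 3.18 and 5.21. Both were at or below 0.217 CPM in every HCT116 library. RTN4RL2, a Nogo receptor homolog, met the PC3-only rule and rose by 1.11 there.

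MRPS6 was the only 1 of 75 mitochondrial ribosomal protein genes to differ (1.33%, against 2.32% of all genes tested). It was at 74.0, 78.9, 75.1 and 80.2 CPM in PC3 normoxia and 181, 156, 128 and 147 in hypoxia, and at 43.9, 46.3 and 57.5 against 47.5, 52.2 and 48.9 in HCT116. It encloses SLC5A3, a myo-inositol transporter gene, on the same strand (MRPS6 at chr21:35445524-35515334, GRCh37), so reads of the 2 genes may not be told apart. SLC5A3 rose from a mean of 108 to 414 CPM in PC3 and went from 33.7 to 44.1 in HCT116. C6orf48, a snoRNA host gene, was at 0.504 to 0.928 CPM in PC3 normoxia and 4.15, 12.2, 13.3 and 1.09 in hypoxia, and lost its call in 10 of 25 other settings.

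Other genes fell in PC3. CYP1B1, a target of the aryl hydrocarbon receptor, was at 130, 129, 107 and 110 CPM in PC3 normoxia and 47.1, 26.3, 21.8 and 25.4 in hypoxia, and at 2.63, 2.47 and 2.86 against 2.91, 2.33 and 3.05 in HCT116. It was the 1 of 7 genes of that pathway to differ (-2.04 ± 0.30, adjusted p = 0.00191). EPGN, an EGF receptor ligand, fell from 117, 120, 121 and 93.3 CPM to 34.2, 30.2, 34.3 and 25.6 in PC3 and was at or below 0.238 in every HCT116 library. Both had HCT116 intervals too wide for the PC3-only class. Falls in PC3 only were seen for ZNF441 (by 1.09), DNM3, a dynamin (by 1.06), PDE4B, a cAMP phosphodiesterase (by 1.03), and PLK3, a p53-linked kinase (by 0.54). The called difference was lost in 7 of 25 other settings for ZNF441, 6 for DNM3, 5 for EPGN, 1 for PDE4B and 0 for CYP1B1. PDE4B stood at 1.29 to 1.72 CPM in PC3 normoxia and at 176 to 182 in HCT116 normoxia. Its HCT116 hypoxic values, 142 to 161, were all lower too, but that fall of 0.25 was not called (edgeR's quasi-likelihood test, adjusted p = 0.0923). PLK3 was the 1 of 31 p53 targets to differ, a call lost in 14 of 25 other settings, and 3 did with the block. The share of 1 in 31 is near the 2.32% of all genes tested. PC3 lacks p53 and HCT116 has it, and a link of this to PLK3 was not tested.

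In HCT116 only, 41 genes rose and 48 fell, and the named ones belong to many functions. KIAA1199 (CEMIP), which breaks down hyaluronan, rose from 1.78, 1.15 and 1.26 CPM to 3.46, 3.70 and 3.96 in HCT116 and was at 9.44, 8.26, 10.1 and 10.7 against 10.3, 8.92, 8.70 and 6.85 in PC3 (difference -1.55 ± 0.23, adjusted p = 0.00191). C1orf116 went from 6.79, 6.18 and 9.21 to 13.6, 17.6 and 19.2 CPM in HCT116 and was at 93.8 to 133 in PC3 normoxia and 111 to 139 in hypoxia. SPTSSB, a subunit of serine palmitoyltransferase, rose from 2.07, 3.11 and 3.96 to 5.12, 7.57 and 6.62 CPM and was at 219 to 282 in PC3 normoxia. These genes, with BHLHE41, were lower in HCT116 than in PC3 both before and after hypoxia. RHOB, a small GTPase, ran the other way, with 123, 125 and 139 CPM in HCT116 normoxia and 201, 287 and 209 in hypoxia, against 25.0 to 42.1 and 23.7 to 32.1 in PC3. NOL3, an inhibitor of apoptosis, rose by 0.88 and TTC30A, a ciliary transport protein, by 1.01, and KLF10, a TGF-beta-induced repressor, by 0.50. Without PC3 hypoxia replicate 4 the differences of all these genes were still called, but C1orf116, SPTSSB, TTC30A and RHOB had PC3 intervals too wide for the HCT116-only class, and KLF10 moved to the opposite class with a called fall in PC3. The called difference was lost in 9 of 25 other settings for RHOB, in 7 for NOL3, in 5 for SPTSSB and in 4 each for C1orf116 and BHLHE41. For KIAA1199, TTC30A and KLF10 it was lost in 0.

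The genes that moved in opposite directions included EGF and ERK signalling. SPRY1, an inhibitor of receptor tyrosine kinase signalling that is induced by ERK (chr4:124317950-124324915, GRCh37), was at 52.7, 51.3, 57.0 and 56.5 CPM in PC3 normoxia and 40.6, 42.8, 44.4 and 47.3 in hypoxia. In HCT116 it went from 1.53, 1.43 and 1.26 to 9.23, 9.02 and 9.40. It fell by 0.31 in PC3 and rose by 2.71 in HCT116, a difference of -3.02 ± 0.11, with the smallest adjusted p of the named genes (1.01e-09, edgeR's quasi-likelihood test). BTC, betacellulin, fell from 14.7, 16.0, 16.1 and 13.7 CPM to 9.43, 9.58, 10.8 and 9.53 in PC3 and rose from 1.22, 1.38 and 1.35 to 1.82, 1.85 and 1.63 in HCT116. DUSP4, a phosphatase that switches off ERK, fell by 0.24 and rose by 0.40. Of 21 genes of this group, 5 rose and 5 fell in PC3, 7 rose and none fell in HCT116, and 4 differed (SPRY1, BTC, DUSP4 and EPGN), all with the larger log2 fold change in HCT116. ERRFI1, DUSP6, EGFR and SPRED2 rose in both lines and were classed as equal.

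TFRC, the transferrin receptor (chr3:195739382-195809024, GRCh37), started level and parted. It was at 817, 966, 947 and 835 CPM in PC3 normoxia and 868, 920 and 846 in HCT116 normoxia, a gap of 0.02 on the log2 scale. In hypoxia it was at 649, 715, 624 and 588 in PC3 and 1177, 1239 and 1155 in HCT116. It fell by 0.47 in PC3 and rose by 0.44 in HCT116 (difference -0.91 ± 0.12, adjusted p = 0.000847), and was the 1 of 11 iron-handling genes to differ. SLC1A3, a glutamate and aspartate transporter, did the reverse, with 44.4, 51.4, 46.7 and 51.9 CPM in PC3 normoxia and 83.8, 86.4, 76.3 and 81.8 in hypoxia, against 14.9, 14.8 and 17.6 and 9.75, 9.67 and 11.4 in HCT116 (difference 1.37 ± 0.12, adjusted p = 2.87e-05). SLC16A6, a monocarboxylate transporter, fell from between 2.08 and 3.75 CPM to between 1.26 and 1.61 in PC3 and rose from between 13.02 and 14.1 to between 27.5 and 34.0 in HCT116. ARRDC4, an arrestin-domain protein of the TXNIP family, fell by 0.63 and rose by 1.48.

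Other genes that rose in PC3 and fell in HCT116 were FAM13A (by 0.92, and fell by 0.33 in HCT116), IPMK, an inositol polyphosphate kinase (0.90, and fell by 0.35), PKP2, plakophilin 2 (0.61, and fell by 0.34), OBSL1 (0.50, and fell by 0.52), and the glycine transporter SLC6A9 (0.45, and fell by 0.51). EDEM1, which sends misfolded glycoproteins to degradation, rose by 0.34 and fell by 0.38, the 1 of 19 genes of the unfolded protein response to differ. TRIM16L rose by 0.58 and fell by 0.75, but it shares sequence with TRIM16, so its reads are uncertain. In the other direction PEX11G, ZNF772, JRKL and FAM198B fell by 0.55 to 0.63 in PC3 and rose by 0.39 to 1.16 in HCT116. Conditions did not overlap in either line for any of the opposite genes named. These genes were chosen by called changes in both lines, so this follows largely from the choice and is no separate support. Without PC3 hypoxia replicate 4 the fall of ARRDC4 in PC3 was no longer called (edgeR's quasi-likelihood test, adjusted p = 0.0775). Of the 41 opposite genes, 34 belonged to none of the 46 lists, and 31 were higher in PC3 in normoxia.

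Equal responses were found among both HIF targets and other genes. ERRFI1, the feedback inhibitor of the EGF receptor (chr1:8064464-8086369, GRCh37), was at 224, 214, 200.4 and 222 CPM in PC3 normoxia and 454, 549, 496 and 528 in hypoxia, and at 579, 608 and 633 against 1112, 1389 and 1281 in HCT116. It rose by 1.24 and 1.06, and the difference of 0.18 had an interval from -0.09 to 0.45. SLC16A3, the lactate exporter MCT4, is a HIF target in the equal class, with 237, 196, 209 and 197 CPM against 369, 394, 385 and 460 in PC3 and 446, 412 and 420 against 871, 914 and 970 in HCT116 (difference -0.17, interval -0.44 to 0.10). MXI1 and CITED2 were the other HIF targets classed as equal. HK1 rose by 0.86 in PC3 and 1.09 in HCT116, but without PC3 hypoxia replicate 4 its difference of -0.31 was called (edgeR's quasi-likelihood test, adjusted p = 0.0431) and it left the equal class.

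RNF24, a ring finger protein, rose by 1.29 and 1.33 from levels that were 2.31 apart on the log2 scale in normoxia, at 20.1 to 25.5 CPM in PC3 and 4.36 to 5.16 in HCT116. SLC45A1, a sugar transporter, rose by 1.32 and 1.28 from 0.446 to 0.679 CPM in PC3 and from 5.69 to 6.13 in HCT116. LRP1, a large endocytic receptor, rose by 0.88 and 0.94 with a baseline gap of 3.62, and BCL6, a transcriptional repressor, by 0.95 and 0.98. The named equal falls were in LENG8, OSBPL7, CCDC14, PRPF39 and FDXACB1, each by 0.60 to 0.74 in both lines. LENG8, a nuclear RNA-processing factor, was at 55.6, 58.4, 55.8 and 62.2 CPM against 37.7, 38.1, 42.8 and 24.2 in PC3 and at 57.7, 57.1 and 59.8 against 33.5, 32.4 and 38.5 in HCT116. The lowest of these PC3 values is from hypoxia replicate 4, and without that library LENG8 fell by 0.55 in PC3 and all 5 remained in the equal class.

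Many functions gave no called difference at all. Of the 46 lists, 22 had none, and the 359 genes included 52 on a list and 307 on none. None of 82 oxidative phosphorylation genes, 79 cytosolic ribosomal proteins, 37 DNA replication genes, 25 ribosome biogenesis genes or 17 heat shock proteins differed, and with the block 1, 0, 1, 0 and 1 did. The shares over all genes tested were 2.32% and, with the block, 8.2%, so a count of 0 does not set the shorter lists apart. Nor does 1 differing gene in a short list, as for mTORC1 brakes, iron handling, ER calcium or the unfolded protein response. The angiogenic and secreted factors also gave none of 19, although 7 differed with the block: VEGFA rose by 0.64 in PC3 and 1.08 in HCT116, ADM by 1.38 and 1.90, and ANGPTL4 by 3.38 and 4.61.

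Sterol, interferon and mitosis genes gave no called difference without the block and some with the block in PC3, and other settings were not counted by list. Of 24 sterol genes, 7 rose in HCT116 and none in PC3, with medians of 0.54 in HCT116 and 0.23 in PC3. None differed, and 4 did with the block, all larger in HCT116. IDI1, an isomerase of the mevalonate pathway, went from a mean of 132 to 217 CPM in HCT116 and from 51.9 to 60.8 in PC3. Of 42 interferon response genes, 4 rose in PC3 and 1 in HCT116. None differed, and 10 did with the block, 9 of them larger in PC3, such as IFITM1, a membrane protein that blocks virus entry, at a mean of 87.1 CPM in normoxia and 157 in hypoxia in PC3 and of 1.44 and 1.34 in HCT116. Of 26 mitosis genes, 5 fell in HCT116 and none in PC3. None differed, and 9 did with the block. All 9 had the larger log2 fold change in PC3 by sign, which a fall in HCT116 also gives. CCNB1, cyclin B1, went from a mean of 538 to 402 CPM in HCT116 and from 173 to 167 in PC3.

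**Figure D4:**
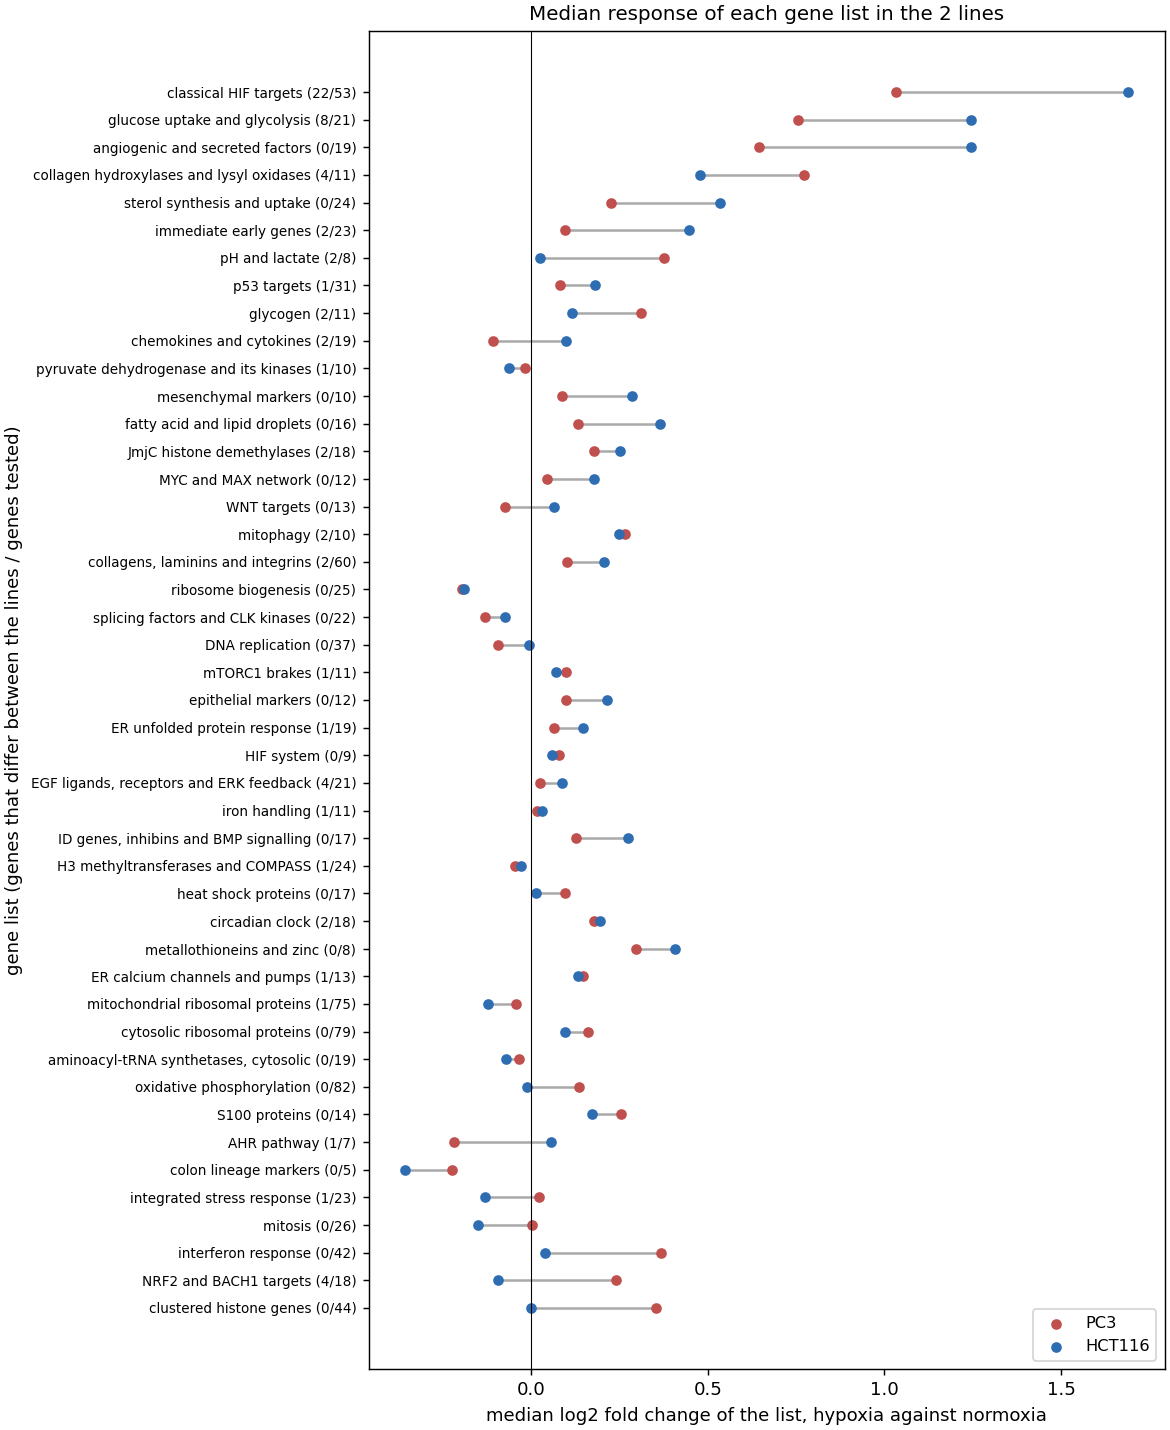
For each gene list with 5 or more tested genes, the median log2 fold change in hypoxia against normoxia is given for PC3 (red) and HCT116 (blue), with the number of genes that differ between the lines over the number tested beside each name. Lists are ordered by the median difference. Classical HIF targets (1.03 in PC3 and 1.69 in HCT116) lie furthest right, and NRF2 and BACH1 targets (0.24 and -0.09) are among the lists with the larger median in PC3.

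The share of genes that differed varied between bins of the baseline gap, without a test. It rose steadily with the gap only where PC3 was higher, and only up to 16-fold. The bins also differ in expression level and in standard error, so the gap cannot be told apart from the power to call a difference. In normoxia, 8454 genes lay within 2-fold between the lines and 184 of them differed (2.18%). The share was 3.62% for the 1575 genes that were 2 to 4-fold higher in PC3 and 4.99% for the 982 that were 4 to 16-fold higher there. The latter were 49 genes, of which 29 had the larger log2 fold change in HCT116. For genes higher in HCT116 it was 1.44% at 2 to 4-fold and 2.5% at 4 to 16-fold. Beyond 16-fold it was 1.3% on the PC3 side and 1.26% on the HCT116 side, where the lower line had a median of 0.00498 and 0.0122 CPM and the median standard error of the difference was 0.875 and 0.751, against 0.142 within 2-fold. With the lines compared over both oxygen levels, so that normoxic error enters less, the shares were 2.12% within 2-fold, 3.56%, 4.34% and 1.5% with rising excess in PC3, and 2.06%, 2.45% and 1.21% with rising excess in HCT116. The direction in the bin with PC3 4 to 16-fold higher turned under this comparison, with 23 genes larger in PC3 and 19 in HCT116.

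**Figure D5:**
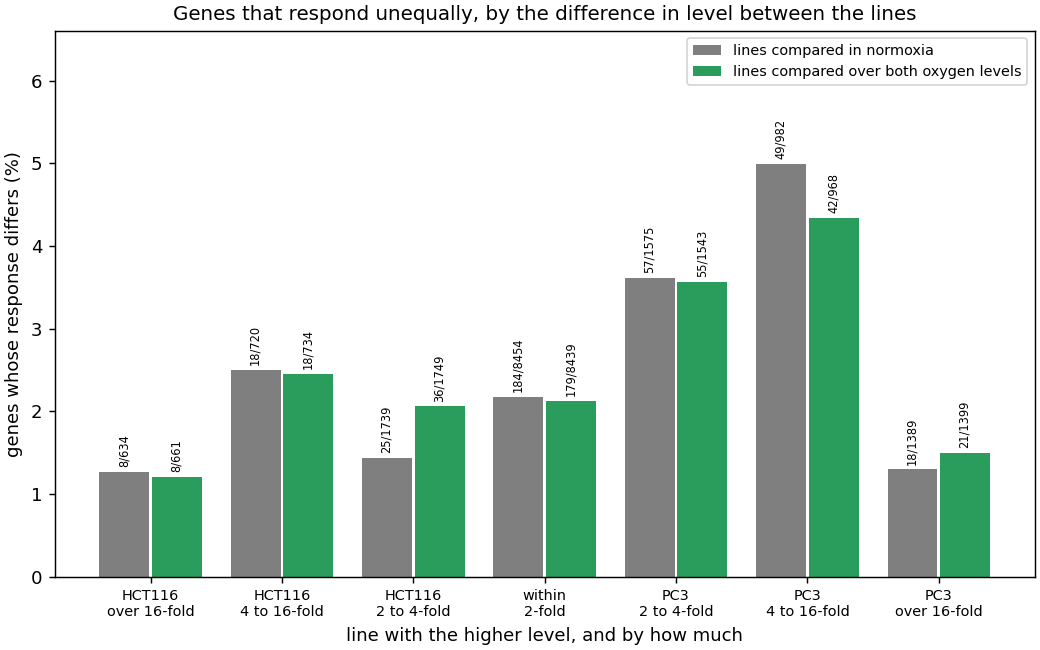
Bars are the percentage of tested genes whose response differed between the lines, by which line had the higher level and by how many fold, in normoxia (grey) or over both oxygen levels (green), with the counts above each bar. The share is highest, 4.99% and 4.34%, where PC3 is 4 to 16-fold higher, and low beyond 16-fold on either side.

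Some strong responders were genes that the other line barely expressed. Of 270 genes that changed by 1 or more (log2) in PC3, 121 were below 1 CPM in HCT116 (44.8%, against 22.5% of all genes tested) and 57 below 0.1 (21.1% against 9.96%). Of 259 in HCT116, 74 were below 1 CPM in PC3 (28.6% against 19.8%) and 19 below 0.1 (7.34% against 6.69%, a share near the background). The floor of 3 counts corresponded to 0.0201 to 0.0447 CPM, and near it a response in the low line may not be detectable at this depth. Genes below 0.1 CPM in both conditions of 1 line and not of the other numbered 836 for PC3 and 1343 for HCT116, and only 1 and 8 of these had a called difference.

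The calls at such low levels rest on few counts. MMRN1, multimerin 1, had 357 to 729 counts in every PC3 library with no change called, and 7, 3 and 8 counts in HCT116 normoxia against 0, 0 and 0 in hypoxia. TUSC3, a subunit of the oligosaccharyltransferase, had 2256 to 4145 counts in PC3 and 12, 17 and 12 against 1, 1 and 4 in HCT116. ISM2 and PLA2G4D rose in PC3, from 21 to 42 and 70 to 123 counts in normoxia to 85 to 103 and 162 to 271 in hypoxia, and had at most 4 and 7 counts in any HCT116 library. TSPAN8 had 1, 2 and 2 counts in HCT116 normoxia against 11, 10 and 3 in hypoxia, PCDHGA6 0, 0 and 0 against 4, 10 and 2, SERHL2 8, 9 and 6 against 0, 0 and 0, and SUSD5 14, 10 and 5 against 0, 1 and 0. TNFRSF13C, the BAFF receptor, had 2 to 5 counts in PC3 normoxia and 4 to 7 in hypoxia. The fitted folds of these genes in the low line are not given in the text, since most rest on groups at or near 0. PCDHGA6 shares exons with its gene cluster and SERHL2 resembles a neighbouring copy, so both are uncertain.

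For the genes called as different and expressed in both lines, hypoxia brought the lines closer in 112 of 350, moved them further apart in 150 and changed their order in 88. Over all 13114 genes expressed in both lines the counts were 5806, 6217 and 1091. In the class that moved in the same direction by unequal amounts, 24 of 54 came closer, 10 moved apart and 20 changed order. In the PC3-only class 53 of 105 moved apart, and in the HCT116-only class 40 of 86 did. These shares are near that of all genes expressed in both lines (6217 of 13114) and are no trait of the classes. Called genes were chosen for their difference, which favours a change of order.

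The ACGTG form of the HIF core motif was counted in the promoters of each class, and no other form was searched. ACGTG on either strand lay within 250 bases before to 50 after the first listed RefSeq start in 27 of 46 matched genes that moved in the same direction by unequal amounts (58.7%). It lay in 90 of 332 matched equal genes (27.1%), in 52 of 177 equal rises (29.4%), and in 5900 of all 27305 genes with a promoter in the table (21.6%). That last share includes genes not tested here, so it is no background for tested genes, and the equal shares cannot be called raised against it. Of the classical HIF targets, 28 of 45 matched held it (62.2%), and 21 of the 54 unequal genes are on that list, so the counts overlap. Shares for the PC3-only, HCT116-only and opposite classes, and for all genes tested, are void, since fewer than 80% of their genes had a matched promoter. A match is a description of these letters in this window and carries no test.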

How the data were processed

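RNA-seq was done by the study on polyadenylated RNA from PC3 and HCT116 cells. Per the study's methods, the authors aligned reads with HISAT2 2.05 to GRCh37 after removing spike-in matches and counted them per RefSeq gene with HTSeq 0.5.4p3 (intersection-strict). The strand setting and RefSeq release are not given in the sources used here, so overlapping and antisense genes are uncertain. The deposited files hold raw counts, 1 file per library, and spike-in counts were not used here.

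Counts were tested with edgeR 4.0.16 (R 4.3.3) after filterByExpr, with TMM scaling, which would not show a change in total mRNA. The quasi-likelihood fit had 1 mean per group over all 14 libraries, and the tested contrast was the PC3 change minus the HCT116 change, with Benjamini-Hochberg adjustment at 0.05, two-sided. Log2 fold changes, standard errors (SE) and 95% intervals come from that fit, and adjusted p-values are from it unless another test is named. The scripts were tested on simulated data. The 3-count floor covers counting error only.

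Pairing was checked by correlating, per replicate number, the deviations of the normoxic and the hypoxic library from their group means. The correlations were 0.830, 0.472, 0.316 and 0.408 in PC3, which was taken as paired, and 0.0901, 0.387 and -0.0596 in HCT116, which was not. Blocked values use the block in PC3 only, an alternative chosen after seeing the data.

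Genes named were the 10 largest called differences per direction (1 CPM or more in a group), the 8 largest opposite differences per direction, 8 equal rises and 5 equal falls, the 8 largest one-line changes per line (1 CPM or more in normoxia in both lines), up to 4 differing members per list, the HIF system, and up to 5 called genes per line that are off there. Some genes chosen by this rule are not reported here. Members and lists were chosen with earlier results of these data known. Genes given by means or from outside this rule were chosen after their values were seen. GRCh37 positions are from GENCODE, and promoter sequences from RefSeq, GRCh38.p14. Alternatives included other scalings and filters, DESeq2 1.42.0, limma 3.58.1 (voom), thinning, narrower intervals and leaving out libraries.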

Additional observations from a re-analysis of the deposited data

Results flagged for a closer look

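The difference between the lines was itself tested, and the log2 fold change, with its sign, was larger in PC3 for 156 genes and in HCT116 for 203, with 41 genes moving in opposite directions. Of 210 PC3 groups of 4 libraries examined for the named genes, 12 held 1 library far from the other 3, against 10.5 that chance gives. Replicate 1 was the distant library in 8 of them. In normoxia it was at 13.6 CPM for TRIM16L (others 9.87 to 10.5), 3.29 for ZNF772 (4.05 to 4.16), 62.1 for CCDC14 (71.6 to 73.5), 114 for NFKBIA (81.7 to 86.9) and 307 for P4HA1 (219 to 231). In hypoxia it was at 87.2 CPM for PKP2 (73.3 to 74.8), 18.3 for NOL3 (23.2 to 24.1) and 130 for ENO2 (108 to 112). Replicate 4 in normoxia was at 93.3 CPM for EPGN (117 to 121), 39.8 for BNIP3 (47.6 to 48.9) and 251 for HIF1AN (267 to 269), and replicate 3 in hypoxia was at 10.8 CPM for BTC (9.43 to 9.58).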

How the results depend on the processing

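All 359 genes that differed kept their sign under every alternative that gave a value, while their number changed. With DESeq2, 963 genes differed, 466 larger in PC3 and 497 in HCT116, with 280 in PC3 only, 294 in HCT116 only, 76 opposite, 627 equal and 109 unequal. With the replicate block in both lines the counts were 1307, 597, 710, 426, 417, 141, 1051 and 177, and with the replicate block in PC3 only 1270, 588, 682, 418, 398, 118, 1020 and 162. All 82 called genes named kept their call under either block. Asking for a difference of at least 1 (log2) left 107, 36, 71, 9, 11, 15 opposite and 21 unequal. Intervals within 0.3 left 118 equal, 37 PC3-only and 56 HCT116-only genes. Total-count scaling, which shifted the median log2 fold change to -0.10 in PC3 and -0.08 in HCT116, gave 670 equal genes, no filter 55 HCT116-only genes, and a limit of 0.5 CPM 25 called genes off in a line, against 9. Without PC3 replicate 1 in both conditions 138 genes were HCT116-only and 601 equal.

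Leaving out 1 library gave 177 (without HCT116 hypoxia replicate 2) to 717 (without PC3 hypoxia replicate 4) differing genes, 78 to 294 larger in PC3, 94 to 423 larger in HCT116, 48 to 194 PC3-only, 28 to 257 HCT116-only, 17 to 61 opposite, 213 to 640 equal and 35 to 98 unequal. Of the 82 called genes named, 0 to 27 lost their call when 1 library was left out. Thinning to the lowest depth lost 11. The HIF targets larger in HCT116 numbered 18 to 27 over all settings apart from the blocks (32 and 34). Causes were not tested.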
